A study of Mus musculus with 3 samples.

Results

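SR proteins and heterogeneous nuclear ribonucleoproteins (hnRNPs) are the main families of RNA-binding proteins that coat nascent transcripts and help to choose splice sites. Their mRNA levels were examined in hippocampal cells sorted for the reporter tdTomato. The genes were the nuclear protein-coding genes whose symbol is Srsf followed by a number, or starts with Hnrnp, once the gene identifiers of the count table were named by GENCODE vM21. This gave 31 genes, 20 hnRNPs and 11 SR proteins, of the 52636 genes counted. The rule used no measured value, although it was set with earlier results of these data known.

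The cells came from Camk2a-Cre +/-, Ai14 +/- male mice on a C57BL/6J background at postnatal day 28 to 32. Hippocampi of 2 to 4 mice were pooled for each of the 3 biological replicates, digested with papain, and live cells positive for tdTomato were collected by FACS before poly(A) RNA was sequenced. All 3 replicates belong to the same group, so the study design holds no treated or mutant cells beside them. The Camk2a promoter drives Cre in forebrain excitatory neurons, and the Ai14 allele turns on tdTomato wherever Cre has acted.

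SR proteins bind exonic enhancers through RNA recognition motifs and recruit splicing factors through a tail rich in arginine and serine, whose phosphorylation sets their place in the nucleus. hnRNPs bind RNA through RNA recognition motifs, related motifs or KH domains, often carry glycine-rich tails, and commonly silence splice sites that SR proteins favour. Many genes of both families control their own mRNA by including an exon with a premature stop codon, which sends the transcript to nonsense-mediated decay. In neurons, members of both families also take part in the transport, stability and translation of mRNA.

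The contrast between the families can be read in the coding sequences. The stretch of 30 codons richest in arginine-serine codon pairs is shown for Srsf2 and Srsf5, and the stretch richest in glycine codons for Hnrnpa0 and Hnrnpll. These are GENCODE vM21 transcript sequences on GRCm38, each inside 1 exon and written 5′ to 3′ in the direction of the gene. Capitals mark arginine and serine codons that sit next to each other in the first pair, and glycine codons in the second pair.
Srsf2: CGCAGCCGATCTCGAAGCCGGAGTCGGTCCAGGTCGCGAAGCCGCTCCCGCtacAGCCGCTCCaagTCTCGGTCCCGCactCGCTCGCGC
Srsf5: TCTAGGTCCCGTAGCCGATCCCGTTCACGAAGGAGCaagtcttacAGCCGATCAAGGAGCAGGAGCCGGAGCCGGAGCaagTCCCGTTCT
Hnrnpa0: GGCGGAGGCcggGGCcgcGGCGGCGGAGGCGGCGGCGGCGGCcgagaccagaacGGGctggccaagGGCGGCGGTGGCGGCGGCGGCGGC
Hnrnpll: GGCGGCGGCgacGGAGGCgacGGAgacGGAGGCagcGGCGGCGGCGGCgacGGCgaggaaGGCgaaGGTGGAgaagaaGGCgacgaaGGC
The Srsf2 stretch lies at chr11:116852226-116852315 on the minus strand, and that of Srsf5 at chr12:80949757-80949846 on the plus strand. The Hnrnpa0 stretch lies at chr13:58127645-58127734 and that of Hnrnpll at chr17:80061732-80061821, both on the minus strand.

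Over the whole coding sequence, hnRNPs held 2 to 13 arginine-serine codon pairs with a median of 4, and SR proteins held 9 to 106 pairs with a median of 42. Glycine codons made up 7.03% to 27.5% of the codons of hnRNPs, with a median of 13.7%, and 3.82% to 14.1% of those of SR proteins, with a median of 7.41%. The families did not overlap in arginine-serine pairs per 100 codons, which reached 2.55 in Hnrnpa2b1 among hnRNPs and was lowest at 4.05 in Srsf9 among SR proteins. Srsf9, known for its short arginine-serine tail, therefore stood nearest to the hnRNPs by this measure. Glycine content overlapped between the families, since Srsf1 and Srsf9 had 14.1% and 12.2% glycine codons. Hnrnpll, whose stretch is shown above, had 10.7%, below both of them. That stretch lies at codons 58 to 87 of 591 and not in a tail. It holds 18 glycine codons, against 14 in the richest stretch of Srsf1.

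**Figure D1:**
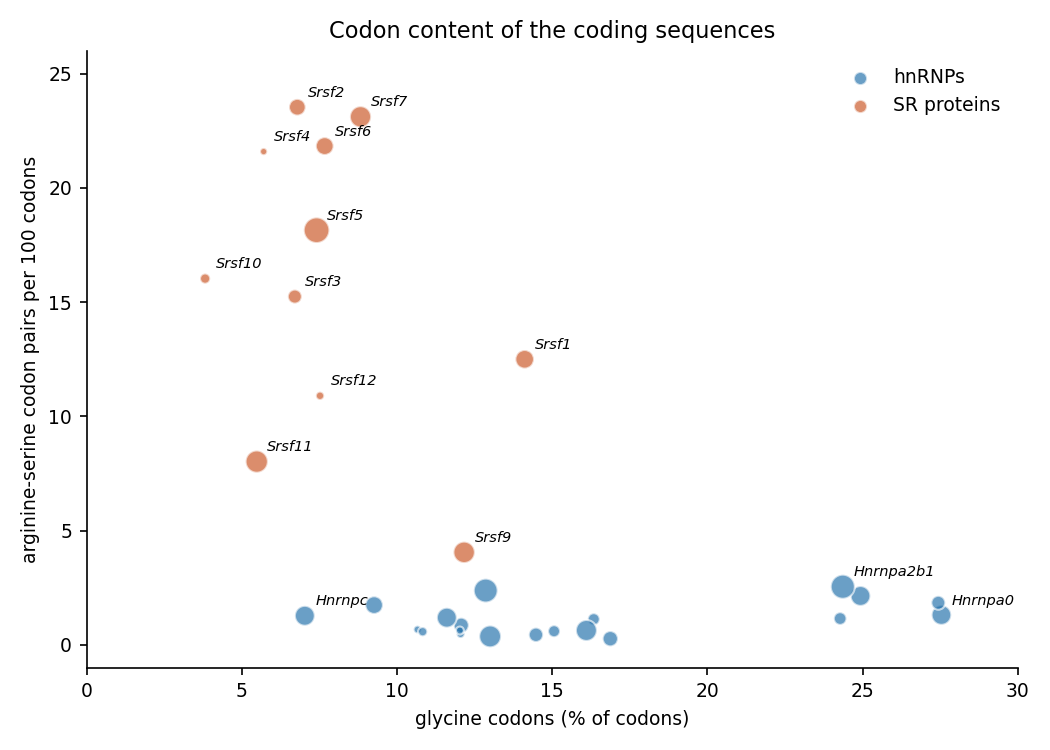
Glycine codons as a percentage of all codons are plotted against arginine-serine codon pairs per 100 codons for the 20 hnRNPs and the 11 SR proteins, with the area of each circle proportional to mean TPM. All hnRNPs lie at or below 2.55 pairs per 100 codons, all SR proteins lie at or above 4.05, and large and small circles occur in both families.

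Levels are given as TPM (transcripts per 1000000), in which a gene's count is divided by the length of its merged exons and scaled to a sum of 1000000 over the 21883 nuclear protein-coding genes. The libraries held 15833075 to 48159841 assigned counts, and nuclear protein-coding genes took 79.4% to 82.0% of them. Mitochondrial genes took 7.09% to 10.6% of counts, and the ribosomal RNA gene CT010467.1 took 1.21% to 3.50%. All 8 markers of CA1 pyramidal neurons were detected, at a median of 204.1 ± 4.09 TPM (SD, n = 3). So were all 6 markers of dentate granule neurons, at a median of 128.0 ± 8.80 TPM. The medians of the marker lists were 60.9 ± 11.7 TPM for oligodendrocytes, 16.1 ± 4.87 TPM for astrocytes, 7.47 ± 1.94 TPM for microglia and endothelial cells and 1.52 ± 0.899 TPM for interneurons. Slc32a1, the vesicular GABA transporter, was at 0 counts in replicates 2 and 3. What part RNA of these other cells has in the values below was not tested, and in sorted bulk samples fewer cells of a type and less RNA per cell cannot be told apart. Errors below are the spread between these 3 libraries.

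Every SR protein and hnRNP gene was expressed in the sorted cells. All 31 genes reached at least 1 count per 1000000 assigned counts (CPM) in each replicate, which 57% of nuclear protein-coding genes did. Their counts lay between 314 and 30431 per library, so counting error alone was at most 5.64% of a value. A level of 100 TPM or more in all replicates was found for 22 of the 31 genes, 14 of 20 hnRNPs and 8 of 11 SR proteins, against 10.5% of nuclear protein-coding genes. By mean level, 21 of the 31 were among the highest 10% of these genes, and their ranks ran between 265 and 6361 of 21883.

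The genes together took 0.611%, 0.608% and 0.636% of the TPM of nuclear protein-coding genes in replicates 1, 2 and 3. The hnRNPs supplied 0.382% ± 0.00997 and the SR proteins 0.237% ± 0.00923 (SD, n = 3), a ratio of 1.61 ± 0.0662 between the sums of 20 and 11 genes. The median hnRNP stood at 160.0 ± 2.94 TPM and the median SR protein at 218.6 ± 17.9 TPM (SD, n = 3). Over all detected nuclear protein-coding genes the median was 37.5 ± 0.815 TPM. The log2 difference of the family medians, hnRNPs minus SR proteins, was -0.36, -0.42 and -0.55 in replicates 1, 2 and 3, a mean of -0.45 ± 0.10. The median hnRNP was thus lower in each of the 3 libraries, but the exact sign-flip permutation test gave a two-sided p of 0.25, the smallest that 3 replicates allow. With the mean of log2 levels in place of the median, a comparison added after the data were seen, the difference was -0.12 ± 0.06.

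**Figure D2:**
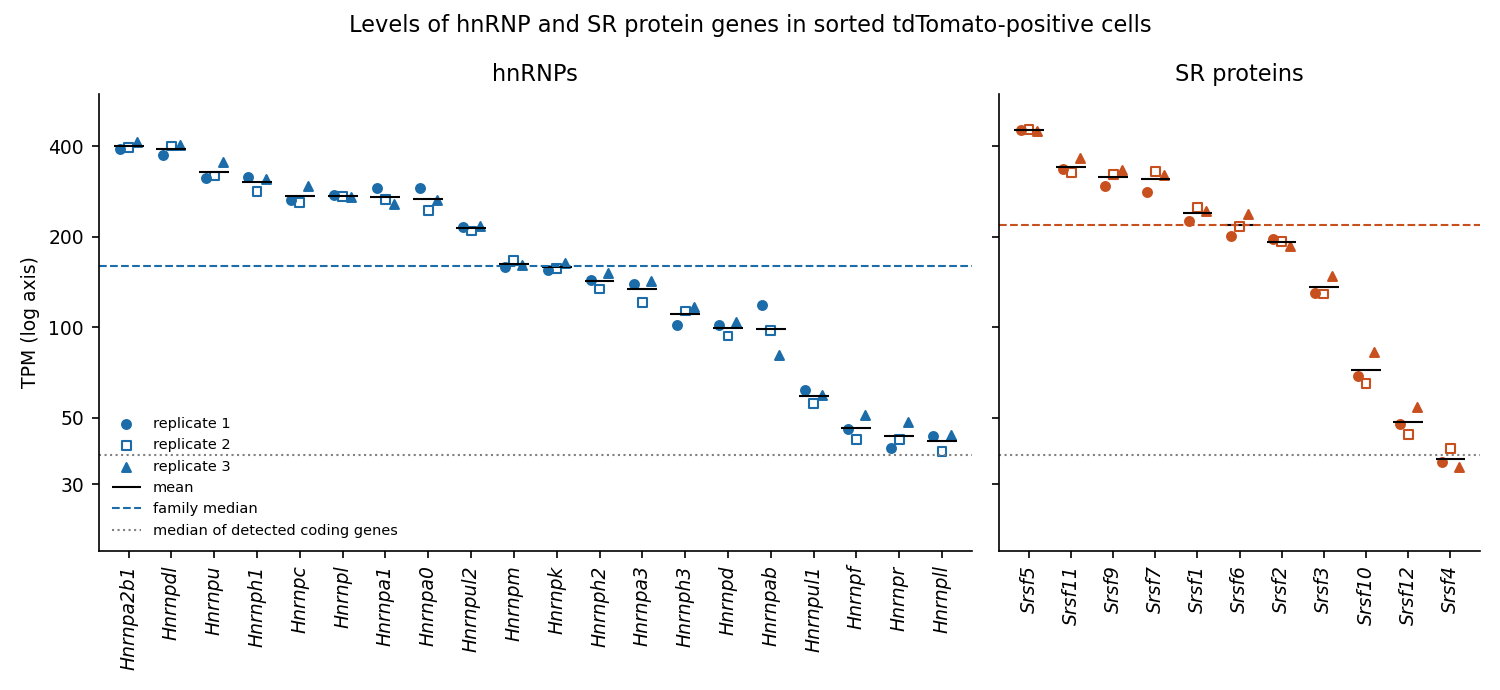
TPM on a log axis is shown for each of the 20 hnRNPs at left and the 11 SR proteins at right, with a symbol for each of the 3 replicates, a bar at the mean, a dashed line at the family median and a dotted line at the median of detected nuclear protein-coding genes (37.5 TPM). Replicates of a gene lie close together compared with the 12.5-fold range between genes, and Hnrnpab shows the widest scatter.

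Among the SR proteins, Srsf5 was the most abundant, and Srsf4 was the least abundant with merged exons as the length. Srsf5 (ENSMUSG00000021134.17, chr12:80945504-80950507), an SR protein with a pair of RNA recognition motifs, had 454.3, 455.6 and 451.6 TPM in replicates 1, 2 and 3. Its mean of 453.8 ± 2.0 TPM was the highest of all 31 genes and ranked 265 among nuclear protein-coding genes. Srsf4 (ENSMUSG00000028911.16, chr4:131873617-131901706), whose arginine-serine tail holds the most codon pairs of any member at 106, had 35.4, 39.5 and 34.2 TPM. It was the lowest of the 31 genes at 36.4 ± 2.8 TPM, 12.5-fold below Srsf5, with no overlap between the replicates of these genes. Its place at the bottom depended on the length, since Srsf4 stood at 41.4 TPM and Srsf12 at 37.4 TPM with the longest protein-coding transcript, and at 61.5 and 46.7 TPM with only the exon bases that no other gene shares.

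Srsf11, Srsf9 and Srsf7 followed Srsf5. Srsf11, which in mouse neurons takes part in the inclusion of microexons, had 335.9, 326.4 and 365.1 TPM. Srsf9, a relative of Srsf1 with a short tail, had 295.3, 323.2 and 332.8 TPM. Srsf7, which carries a zinc knuckle and acts in mRNA export as well as splicing, had 282.1, 329.6 and 321.5 TPM. The replicates of these genes overlapped, so their order among themselves was not resolved.

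Srsf1, the founding member of the family, averaged 239.5 ± 12.9 TPM and Srsf6 218.6 ± 17.9 TPM (SD, n = 3). Srsf2, a component of nuclear speckles, averaged 192.1 ± 5.1 TPM, and its 3 replicates lay below all those of Srsf1 and Srsf6. Srsf3, the shortest SR protein with 164 codons and an mRNA export adaptor, averaged 135.6 ± 10.9 TPM. Srsf10 and Srsf12 were lower. Srsf10, which represses splicing when it is dephosphorylated, averaged 72.1 ± 9.2 TPM, and its relative Srsf12 averaged 48.5 ± 5.3 TPM.

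Among the hnRNPs, the highest were Hnrnpa2b1 and Hnrnpdl. Hnrnpa2b1 (ENSMUSG00000004980.16, chr6:51460932-51469894), which binds mRNAs carried into dendrites, had 392.3, 395.6 and 413.5 TPM. Hnrnpdl (ENSMUSG00000029328.15, chr5:100033577-100039664), a relative of the AU-rich element binding protein encoded by Hnrnpd, had 373.3, 401.1 and 402.9 TPM. Their replicates overlapped, while all 3 replicates of both genes lay below those of Srsf5. Hnrnpu, a scaffold protein of chromatin and nuclear RNA, followed with 314.6, 318.9 and 354.7 TPM.

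Hnrnph1, Hnrnpc, Hnrnpl, Hnrnpa1 and Hnrnpa0 came next, with means between 303.4 and 266.2 TPM. Hnrnph1, which binds runs of G, averaged 303.4 ± 18.2 TPM. Hnrnpc, which binds runs of U and forms a core of the hnRNP particle, averaged 273.1 ± 18.8 TPM. Hnrnpl, which binds CA repeats, had 274.9, 273.1 and 270.6 TPM, the narrowest range of TPM between replicates after Srsf5. Hnrnpa1, the best studied splicing silencer of the family, had 289.7, 265.7 and 256.7 TPM, and Hnrnpa0, encoded by a single coding exon, had 289.8, 244.0 and 264.9 TPM. Replicates of neighbouring genes overlapped throughout this range.

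Hnrnpul2, a relative of Hnrnpu, averaged 214.2 ± 4.5 TPM. Hnrnpm averaged 161.8 ± 3.9 TPM and Hnrnpk, a protein with KH domains that binds runs of C, averaged 158.1 ± 4.5 TPM, and their replicates overlapped. The relatives of Hnrnph1 that bind the same runs of G were lower, with 142.7 ± 8.5 TPM for Hnrnph2, 110.7 ± 7.8 TPM for Hnrnph3 and 46.3 ± 4.3 TPM for Hnrnpf. Hnrnpa3, a relative of Hnrnpa1, averaged 133.9 ± 11.6 TPM. Hnrnpd, which acts on the decay of mRNAs with AU-rich elements, averaged 99.7 ± 5.5 TPM, within the range of Hnrnpab. Hnrnpul1, the other relative of Hnrnpu, averaged 58.9 ± 3.0 TPM, below every replicate of Hnrnpul2.

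Hnrnpr and Hnrnpll stood at the low end with Hnrnpf. Hnrnpr, which binds mRNA in axons of motor neurons, had 39.5, 42.2 and 48.4 TPM. Hnrnpll (ENSMUSG00000024095.15, chr17:80029487-80062334), known for its part in the splicing of Ptprc in T cells, had 43.5, 38.5 and 43.6 TPM, the lowest mean among hnRNPs at 41.9 ± 2.9 TPM.

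Read down the whole order, the 31 genes fell into 9 blocks of neighbours whose replicates overlapped. Of the 30 neighbouring pairs, 22 had overlapping replicates and 8 did not, and 15 kept the same order in all 3 replicates. Srsf5 stood alone at the top, Srsf2 and Hnrnpul1 stood alone lower down, and the longest block ran over 12 genes between Srsf11 and Hnrnpul2. The 5 genes at the bottom, Srsf12, Hnrnpf, Hnrnpr, Hnrnpll and Srsf4, formed the last block.

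Paralogs were compared within each library to ask which copy of a related pair was the more abundant. Of 17 pairs, the gene named first was higher in all 3 replicates in 10 pairs, lower in all 3 in 5 pairs, and mixed in 2. Exact sign-flip permutation tests gave a two-sided p of 0.25 for the 15 pairs in which all replicates had the same direction, with a Benjamini-Hochberg adjusted value of 0.283 over the 17 pairs, so none could pass 0.05 with 3 replicates. Differences are log2(TPM + 1) of the first gene minus the second.

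In the SR family, Srsf5 exceeded Srsf6, its relative with the same domain layout, by 1.05 ± 0.12 on the log2 scale, a 2.08-fold difference of means. Srsf4, the third of this group, was lower than Srsf6, with -2.55 ± 0.18. Srsf3 was lower than Srsf7, with -1.19 ± 0.13, and Srsf1 lower than Srsf9, with -0.40 ± 0.04. Srsf10 was higher than Srsf12 by 0.56 ± 0.04. The replicates of the genes in each of these 5 pairs did not overlap. With the longest protein-coding transcript as the length, the difference between Srsf3 and Srsf7 shrank to -0.16 ± 0.13 and that between Srsf5 and Srsf6 widened to 1.95 ± 0.12.

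In the hnRNP family, the widest differences with merged exons were those of Hnrnph1 over Hnrnpf at 2.69 ± 0.09 and of Hnrnpl over Hnrnpll at 2.68 ± 0.10, 6.55-fold and 6.51-fold. This order did not hold with the longest protein-coding transcript, which gave 12.4-fold for Hnrnph1 over Hnrnpf, 3.86-fold for Hnrnpl over Hnrnpll, and wider log2 differences than that of Hnrnpl and Hnrnpll for Hnrnpd and Hnrnpdl (-2.66 ± 0.11) and for Hnrnpa2b1 and Hnrnpa1 (2.49 ± 0.12). Hnrnpd was lower than Hnrnpdl, with -1.97 ± 0.11. Hnrnph1 exceeded Hnrnph2 by 1.08 ± 0.05 and Hnrnph3 by 1.45 ± 0.16, Hnrnpul2 exceeded Hnrnpul1 by 1.85 ± 0.05, and Hnrnpu exceeded Hnrnpul2 by 0.62 ± 0.08. Hnrnpa2b1 exceeded Hnrnpa1 by 0.56 ± 0.12, while Hnrnpa3 was lower than Hnrnpa1, with -1.01 ± 0.15. Hnrnpa0 and Hnrnpa1 were not separated, with differences between -0.12 and 0.05, and nor were Hnrnpab and Hnrnpd, with differences between -0.36 and 0.21. Hnrnpr was above Syncrip, which encodes hnRNP Q, by 0.32 ± 0.08, but their replicates overlapped.

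**Figure D3:**
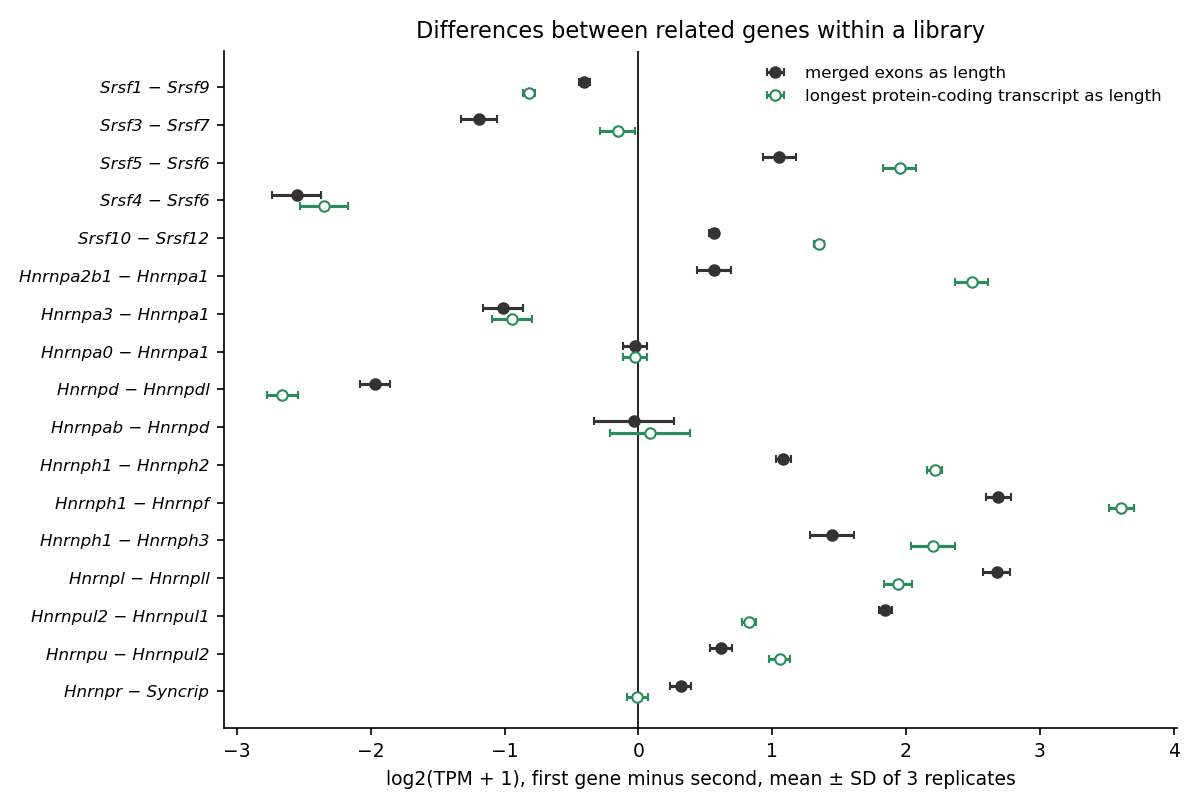
The log2(TPM + 1) difference of the first minus the second gene is shown for 17 related pairs as mean ± SD of 3 replicates, with filled circles for merged exons as the gene length and open circles for the longest protein-coding transcript. With merged exons, 10 pairs lie above 0 and 5 below 0 in all replicates, and the pairs Hnrnpab and Hnrnpd, and Hnrnpr and Syncrip, change sign between the lengths.

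The level of a gene depends on the length by which its count is divided, and for several members this mattered. Merged exons include exons of transcripts that are not annotated as protein-coding. Such bases made up a median of 19.7% of the merged exons of the 31 genes, 12.6% for hnRNPs and 24.9% for SR proteins, against 12.2% for detected nuclear protein-coding genes. They made up more than 50% in 7 of the 31 genes, a share of 22.6%, against 10.9% of detected genes. These were Hnrnpll, Hnrnpa2b1, Srsf11, Srsf5, Hnrnph1, Hnrnpul1 and Hnrnpl, with 73.3%, 63.0%, 60.6%, 58.5%, 57.0%, 54.3% and 52.6%.

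With the longest protein-coding transcript as the length, Hnrnpa2b1 was the highest of the 31 genes at 1100.0 ± 26.7 TPM, and Srsf5 followed at 832.2 ± 7.0 TPM. Hnrnpll then stood at 113.2 ± 8.0 TPM in place of 41.9 ± 2.9 TPM, and Hnrnpr became the lowest at 32.4 ± 3.3 TPM. The range between the highest and the lowest gene was 34.0-fold on this length and 12.5-fold on merged exons. Of the 10 highest genes, 8 were the same with both lengths. The change of length also rescaled the TPM of all genes. Hnrnpa0 and Hnrnpa1, whose lengths were the same under both choices, stood at 0.721 of their values with merged exons. The family medians moved little, to 156.1 ± 0.389 TPM for hnRNPs and 205.2 ± 9.78 TPM for SR proteins, and hnRNPs minus SR proteins gave -0.40 ± 0.07 (exact permutation test, p = 0.25).

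**Figure D4:**
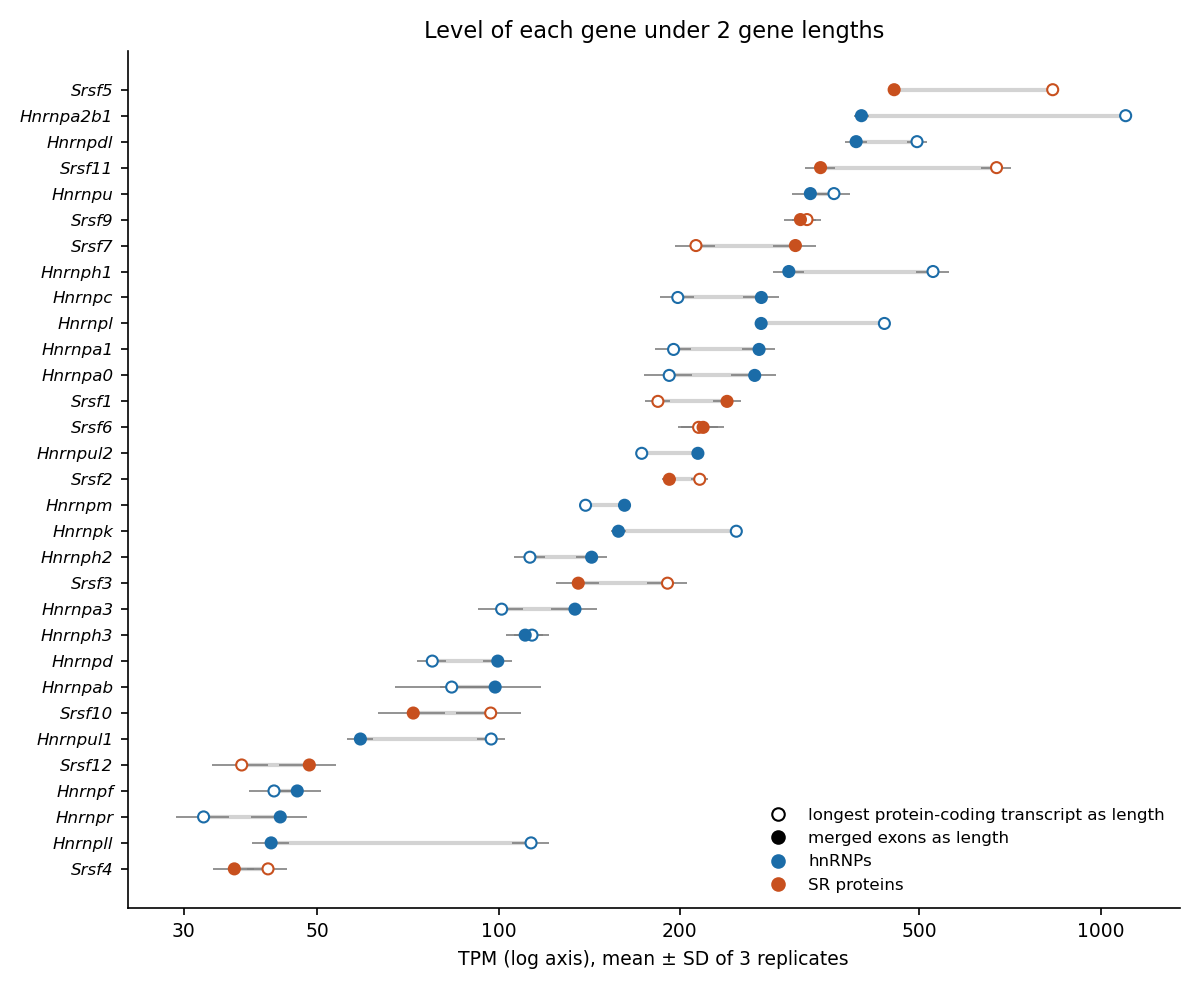
Mean TPM ± SD of 3 replicates on a log axis is drawn for each of the 31 genes with merged exons as the length (filled circles) and with the longest protein-coding transcript as the length (open circles), joined by a grey line, for hnRNPs in blue and SR proteins in orange. Hnrnpa2b1 and Hnrnpll move farthest, to 1100.0 and 113.2 TPM, and Srsf9, Srsf6 and Hnrnph3 hardly move. The choice of length also rescales all TPM, so Hnrnpa0, with the same length under both choices, falls to 0.721 of its value. Merged exons are 1.42, 1.36 and 1.42 times the transcript length in Srsf9, Srsf6 and Hnrnph3, so their small moves do not mean an unchanged length.

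Part of this extra length lies in exons of transcripts with a premature stop codon. GENCODE vM21 annotates a transcript subject to nonsense-mediated decay for 19 of the 31 genes, 10 of 20 hnRNPs and 9 of 11 SR proteins, a share of 61.3% against 28.8% of detected nuclear protein-coding genes. Transcripts with a retained intron are annotated for 22 of the 31, a share of 71.0% against 58.7%. In 7 genes, Hnrnpl, Hnrnpll, Srsf3, Srsf4, Srsf7, Srsf9 and Srsf11, such a transcript reaches its stop codon inside an exon that no protein-coding transcript contains. There were 9 of these exons, with lengths between 70 and 460 bp. The bases from the start of the exon to the premature stop are given for 5 of them, since the stop is what separates these transcripts from coding ones, with the stop codon in capitals.
Hnrnpl: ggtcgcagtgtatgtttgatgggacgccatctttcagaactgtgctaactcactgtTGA
Hnrnpll: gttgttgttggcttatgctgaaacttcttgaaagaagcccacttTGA
Srsf3: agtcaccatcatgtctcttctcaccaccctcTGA
Srsf7: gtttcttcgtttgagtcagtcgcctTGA
Srsf11: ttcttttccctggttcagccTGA
They lie on GRCm38 at chr7:28817335-28817393 (plus strand) for Hnrnpl, chr17:80044976-80045022 (minus) for Hnrnpll, chr17:29039454-29039487 (plus) for Srsf3, chr17:80205054-80205081 (minus) for Srsf7 and chr3:158024209-158024231 (minus) for Srsf11. The exon is 456 bp long in Srsf3 and 460 bp in Srsf7. The counted exons include it in Srsf3 and leave it out in Srsf7, whose counted length of 2279 bp is 1271 bp short of the vM21 gene. A count per gene does not show how often such an exon was included, and inclusion was not measured here.

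The exons counted for a gene were identical to those of GENCODE vM21 for 25 of the 31 genes. They were shorter for Hnrnpa1, Hnrnpc, Hnrnpm, Srsf3 and Srsf7 and differed in both directions for Hnrnpul2. Srsf3 and Srsf7 were shortened by about the same share, to 5109 of 7899 bp and 2279 of 3550 bp.

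Sequence shared with other genes limits some of the levels. Words of 31 bases from the main coding transcript of each gene were looked up in the transcripts of all other genes, and 10 of the 31 genes shared none. More than 25% of the words were found elsewhere for 7 genes, the most for Hnrnpa3 at 92.5%, spread over 35 pseudogenes. For Hnrnpf this share was 50.2%, for Hnrnpa1 48.3%, for Hnrnpk 39.6% and for Srsf5 36.7%. How reads that map to several places were counted is not given in the sources used here.

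Counts were assigned to some of these pseudogenes. Gm7964, a processed pseudogene of Hnrnpk, held 3786, 1926 and 1101 counts in replicates 1, 2 and 3, beside 8326, 4478 and 2720 for Hnrnpk itself. Gm10052, a processed pseudogene of Hnrnpa1, held 1989, 1101 and 478 counts, beside 4633, 2251 and 1270 for Hnrnpa1. Gm12966, a processed pseudogene of Srsf5, held 2156, 1323 and 855 counts, beside 15107, 8025 and 4645 for Srsf5. Over all pseudogenes that share at least 100 words with a gene, the counts came to 46.1% of those of Hnrnpk, 49.1% of those of Hnrnpa1 and 15.6% of those of Srsf5. Whether those reads came from the pseudogenes or their parents was not tested, and the levels of these 3 genes are uncertain, with no bound from these sums. For Hnrnpa3 and Hnrnpf, which share more words, pseudogene counts came to only 7.42% and 2.82%. Their levels, and their differences from Hnrnpa1 and Hnrnph1, are uncertain too, since the treatment of multimapping reads is not known.

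Exons overlapping another gene made up more than 10% of 5 genes. Srsf4 shared 43.0% of its exon bases with Gm12992 on the opposite strand, Hnrnpab shared 29.1% with Phykpl, Hnrnpf 26.5% with 4933440N22Rik and Gm43863, Srsf2 25.3% with Mettl23 and Mfsd11, and Hnrnpm 24.9% with March2 on its own strand. When only unshared exon bases were used as the length, a choice added after the data were seen, Hnrnpab stood at 134.0 TPM, and Srsf4 at 61.5 TPM was above Hnrnpf, Hnrnpul1, Srsf12, Hnrnpr and Hnrnpll. The whole count of each gene was divided by this shorter length. Whether reads on shared bases were among those counts is not known, and if they were, these levels are too high. Hnrnpab then exceeded Hnrnpd by 0.38 ± 0.30.

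The spread between replicates was set against counting error alone. A chi-square test of the Poisson index of dispersion on raw counts, adjusted by the Benjamini-Hochberg method over the 15955 genes detected, called 28 of the 31 genes, 17 of 20 hnRNPs and 11 of 11 SR proteins, against 59.2% of the genes tested. The test sees smaller differences where counts are larger, and among the 2305 nuclear protein-coding genes with 100 TPM or more in all replicates it called 1918, so the members' count says little about the members. Hnrnpa2b1, Hnrnpk and Hnrnpf were not called, with adjusted p-values of 0.297, 0.729 and 0.109 in this test. With any replicate left out, 15 to 18 of the 31 genes were called. The share over all genes tested is not given for these runs, so their counts say nothing particular about the members.

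The differences were small in size for most members. The coefficient of variation over replicates had a median of 4.83% in normalized counts and 6.30% in TPM over the 31 genes. Over the 2305 nuclear protein-coding genes with 100 TPM or more in all replicates it was 6.96% in normalized counts and 5.68% in TPM, so whether the members varied less or more than other abundant genes depended on the scaling. It was below 10% for 29 of the 31 genes in normalized counts and for 27 in TPM. Of those 2305 abundant genes, 1798 were below 10% in normalized counts and 2030 in TPM, so small differences were not particular to the members. Hnrnpab, which binds and transports neuronal mRNAs, was the most variable with both scalings. It had 118.1, 97.3 and 80.5 TPM in replicates 1, 2 and 3, a 1.47-fold range, and a coefficient of variation of 22.5% in normalized counts and 19.1% in TPM.

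The steadiest member also changed with the scaling. Srsf5 varied least in TPM, at 0.451%, but by 4.12% in normalized counts, while Hnrnpk and Hnrnpa2b1 varied least in normalized counts, at 0.969% and 1.06%, and by 2.83% and 2.85% in TPM. Replicate 3 held the highest TPM for 19 of the 31 genes, a share of 61.3%. This share was 46.6% of detected nuclear protein-coding genes and 30.9% of those with 100 TPM or more in all replicates. In normalized counts replicate 3 was highest for 9 of the 31, a share of 29.0%, against 30.6% and 12.2%. Replicate 1 held the highest normalized count for 15 of the 31, so no replicate stood above the others under both scalings. All 6 detected markers of microglia and endothelial cells were highest in replicate 3 in TPM, among them Cldn5 with 5.85, 10.6 and 49.4 TPM, and their part in the members' values was not tested.

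The 2 families were then set beside other splicing genes. SR-related proteins, among them Tra2a and Tra2b, which act with SR proteins on exonic enhancers, had a median of 151.8 ± 3.21 TPM over 20 genes (SD, n = 3). With merged exons, the highest was Luc7l3, a U1-associated protein, at 717.3 ± 15.7 TPM, above all 31 members. The lowest was Rsrc1 at 17.2 ± 0.705 TPM. With the longest protein-coding transcript as the length, Luc7l3 stood at 717.7 TPM, below Hnrnpa2b1 at 1100.0 TPM and Srsf5 at 832.2 TPM. Rsrc1 then stood at 46.1 TPM, above Scaf11 at 36.3 TPM. The 16 hnRNPs with other symbols had a median of 125.3 ± 7.27 TPM, between Pcbp1, a poly(C)-binding protein, at 332.5 ± 36.6 TPM and Syncrip at 34.7 ± 4.33 TPM. With the longest protein-coding transcript, the ends of this list were Ewsr1 at 496.2 TPM and Ptbp3 at 30.3 TPM. Ptbp1, the polypyrimidine tract protein that neurons replace with Ptbp2, had 35.4 ± 1.64 TPM, and Ptbp2 had 74.3 ± 7.46 TPM.

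The kinases and the import receptor that act on SR proteins had a lower median than the SR proteins, 68.8 ± 5.67 TPM over 9 genes. Clk1, a nuclear kinase of SR proteins, was the highest at 147.4 ± 17.0 TPM. It stood at 481.0 TPM with the longest protein-coding transcript as the length, again the highest of these genes. Srpk2 and Srpk1, cytoplasmic kinases of the arginine-serine tail, had 69.3 ± 6.83 and 67.4 ± 6.90 TPM, and Tnpo3, which carries SR proteins into the nucleus, had 25.1 ± 1.43 TPM. Srpk3, known as a muscle kinase, was the lowest at 6.13 ± 1.64 TPM.

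The 32 genes of the core spliceosome had a median of 62.6 ± 1.20 TPM with merged exons. Snrpn at 632.2 ± 40.3 TPM and Snrpc at 10.8 ± 1.73 TPM were the ends of the range. Both ends depended on the length. With the longest protein-coding transcript they were Snrnp70 at 1552.5 TPM and Prpf4 at 18.2 TPM, beside 474.1 TPM for Snrpn and 47.6 TPM for Snrpc. The median SR protein had 201.8, 216.4 and 237.5 TPM in replicates 1, 2 and 3, against 223.8, 220.3 and 245.5 TPM for the 21 neuronal splicing regulators, a difference that was not tested. The neuronal regulators were led by Rbfox1 at 859.0 ± 63.7 TPM. Mbnl3, the lowest of them, was at 0 counts in replicates 2 and 3. A TPM of 100 or more in all replicates was found for 15 of the 20 SR-related genes, 10 of the 16 other hnRNPs, 2 of the 9 kinases and import genes, 10 of the 32 spliceosome genes and 11 of the 21 neuronal regulators. With the longest protein-coding transcript as the length, the medians were 186.3 TPM for SR-related genes, 176.5 TPM for neuronal regulators, 130.5 TPM for other hnRNPs, 107.2 TPM for kinases and import genes and 73.1 TPM for the spliceosome, beside 156.1 TPM for the hnRNPs and 205.2 TPM for the SR proteins. The hnRNPs, above the SR-related genes with merged exons, were thus below them with this length.

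**Figure D5:**
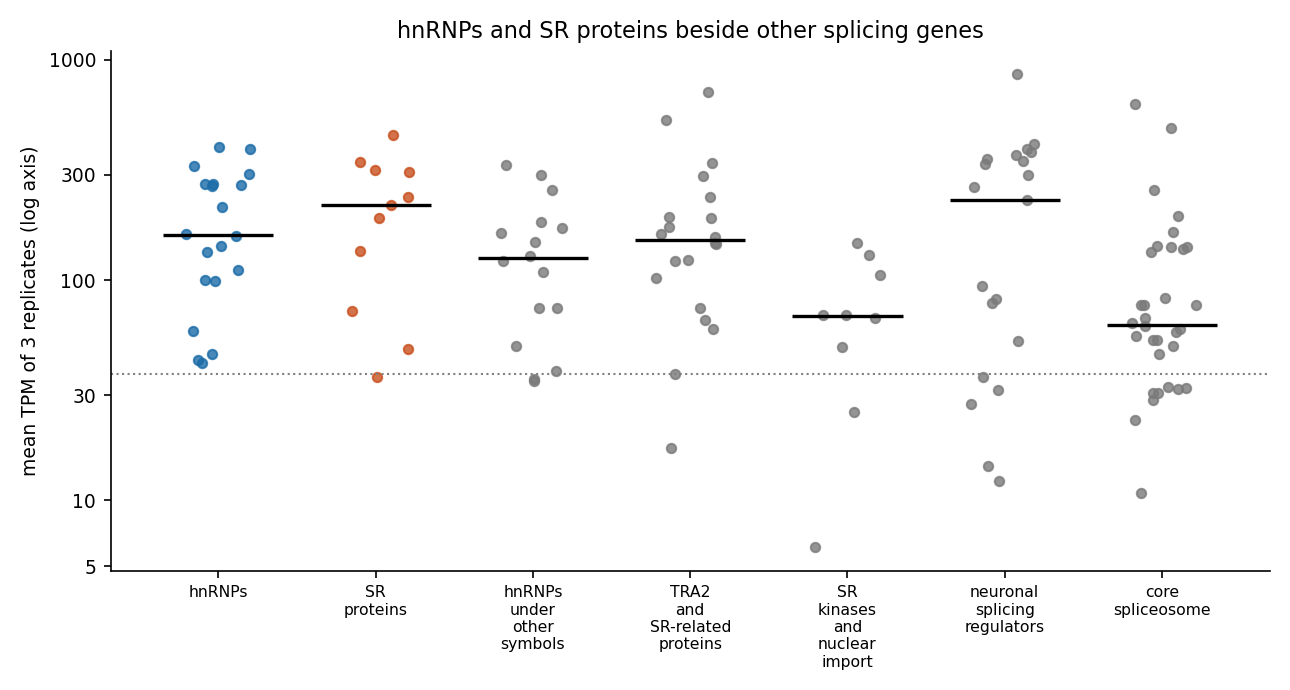
Mean TPM of 3 replicates on a log axis is plotted for each gene of the 2 families at left and of 5 other lists of splicing genes, with a bar at the median of each list and a dotted line at the median of detected nuclear protein-coding genes, and 1 gene below 1 TPM (Mbnl3) is not drawn. The bars of the hnRNPs and SR proteins stand at 160.0 and 218.6 TPM, above those of every other list but the neuronal splicing regulators.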

How the data were processed

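Raw counts per gene of the 3 sorted replicates, with the exon coordinates and merged exon length of each gene, were used as the authors deposited them. The library kit was TruSeq with poly(A) selection, sequenced as 150 bp paired-end reads. The submitters' processing notes name STAR, featureCounts and mm10/GRCm38 without versions. For its TRAP libraries the study states GENCODE vM15 as the annotation of featureCounts. For the sorted libraries the annotation release, strand setting, treatment of multimapping reads and whether reads or fragments were counted are not given in the sources used here. No column of samples was left out (0).

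Of 52636 genes, 52489 were named by GENCODE vM21, whose exons were identical to the counted ones for 94.3% of named genes. TPM, CPM (minimum 1) and log2(TPM + 1) were computed from the counts, and counts were normalized by size factors (median of ratios; 1.78, 0.963 and 0.592). TMM factors of edgeR 4.0.16 in R 4.3.3 (0.989 to 1.01) served as an alternative. The scale over nuclear protein-coding genes was chosen because Gm23935, annotated as a miRNA, took 32.7% to 48.3% of a TPM over all genes. Differences within a library were tested by exact two-sided sign-flip permutation over 3 replicates, and spread by the Poisson index of dispersion with Benjamini-Hochberg adjustment at 0.05. On simulated counts for this test, 100 of 100 genes with a 2-fold change in 1 library, 100 of 100 with a 4-fold change and 8 of 15755 unchanged genes were called. All members were named, with pair and list genes where a result turned on them, first the highest and lowest of each list. The members, pairs, lists and tests were chosen with earlier results of these data known. Qki and Nov were matched as Qk and Ccn3 through RefSeq synonyms. Alternatives were the TPM scale, RPKM, normalized counts per kb, gene length, pseudocount (0.1), filter (CPM 0.5, TPM 1), normalization and leaving out each replicate. Unshared exon length, family means and TPM without Lars2 were added after the data were seen. Computation used scipy 1.17.1, numpy 2.4.6 and pandas 2.3.3 in Python 3.11.15, with matplotlib 3.10.9 for plots. Protein sequences were not used here.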

Additional observations from a re-analysis of the deposited data

How the results depend on the processing

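Over 54 values and 483 alternatives, 338 kept their direction and stayed within the replicate spread or within 1.5 times a count, 140 moved and 5 turned direction. Most moves were changes of unit. The median of hnRNPs was 50.2 as TPM over all genes, 727 as normalized counts per kb, 27.1 as RPKM, 156.1 TPM with the longest protein-coding transcript and 182.7 TPM with unshared exon length. The median of SR proteins was 68.2 as TPM over all genes, 991 as normalized counts per kb and 36.9 as RPKM. The difference of hnRNPs minus SR proteins stayed negative under every alternative run, between -0.49 without replicate 1 and -0.12 with family means. Hnrnpab minus Hnrnpd turned to 0.089 with the longest protein-coding transcript and 0.38 with unshared exon length, and lay between -0.15 and 0.14 with a replicate left out, the positive value being that without replicate 3. Hnrnpr minus Syncrip turned to -0.0070 with the longest protein-coding transcript. Hnrnpa0 minus Hnrnpa1 lay between -0.061 and 0.023 with a replicate left out, the positive value being that without replicate 2. Detection of all 31 members held under every filter. The count of members with spread beyond counting error was 28, 27 with TMM, 26 with total counts, 25 with no filter and 15 to 18 without any 1 replicate, a test on fewer samples. For these alternatives the share over all genes tested is not given, so the counts are not a result about the members. No paired analysis was possible because the samples form 1 group, with no other group to pair them with. The comparisons between genes were made within each library. With 3 replicates the sign-flip test cannot go below 0.25, so the p-values say nothing about stability.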
